A study of Rattus norvegicus with 8 samples.

Results

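Mdm2, Cdkn1a, Ccng1, Gadd45a, Cdkn2a, Cdkn2b, Sirt1, Sirt6 and Lmnb1 are 9 rat genes of the p53 response, of cell cycle arrest and senescence, of the sirtuin family and of the nuclear lamina. They were chosen by name and found on the array through the RefSeq accessions of its non-control probes. Of the 9 genes, 8 had a probe, with 10 probes among them, out of 16667 named genes and 45598 probes on the array. No probe matched Sirt1, which has no value here. All 8 measured genes passed the filter on dim probes, and the probe that represents each gene was well above background on all 8 arrays.

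The samples were lungs of male rats, 2 arrays in each of 4 groups, each array hybridised with Cy3-labelled cDNA from 200 ng of total RNA taken from 30 mg of tissue. The EV group breathed cigarette smoke for 12 weeks and was then given, into the trachea in week 13, the extracellular vesicles of about 2500000 human umbilical cord mesenchymal stem cells. The MSC group had the same smoke and was given about 2500000 of those cells at the same time and by the same route. The smoke group had the smoke without treatment, and the naive group breathed normal air. Strain and age are not given in the sources used here, and the labels do not say that the 2 samples of a group come from different animals. The p values therefore reflect only the spread between the samples, some of which could be technical. The treatments were human and the arrays carry rat probes. In bulk lung, fewer cells of a type and less RNA per cell cannot be told apart.

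A level is the log2 signal of a probe relative to the 75th percentile of its array, so each direction is set against the rest of the probes on its array. That percentile was 762.2 and 482.8 on the EV arrays, 245.7 and 256.4 on the MSC arrays, 3235 and 2677 on the smoke arrays and 568.4 and 362.2 on the naive arrays, while the mean log2 signal of the E1A spike-in controls lay between 11.03 and 11.65 on all 8. The deposited signals of most probes were thus several times brighter on the smoke arrays, and scaling to the spike-ins instead moves every comparison with the smoke group. Values of a group are given for replicate 1 and then replicate 2. The median log2 difference over all 25097 features was -0.62 in smoke against naive lung on the percentile scale and 2.34 on the spike-in scale. For EV against smoke lung these medians were 0.55 and -1.94, and for MSC against smoke lung 0.74 and -3.28. The arrays shared 1 slide with a column for each group, so that effects of column and of group cannot be told apart. Lung epithelial markers were well above background on every array for all 15 probed genes of the list, with mean levels between 3.98 and 5.04.

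The transcription factor p53 is held low by Mdm2, a ubiquitin ligase that p53 itself induces. When DNA is damaged, p53 raises Cdkn1a (p21), which stops the cell cycle by inhibiting cyclin-dependent kinases, together with Gadd45a and Ccng1. Lasting arrest, or senescence, is held by the inhibitors encoded at Cdkn2a and Cdkn2b and is marked by loss of the lamina protein lamin B1, while the deacetylases Sirt1 and Sirt6 are known to guard against it. Cigarette smoke is known to raise p21 and to lower Sirt1 in lung cells.

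In smoke lung against naive lung, 5 of the 8 measured genes passed the test at an adjusted p of 0.05: Ccng1, Sirt6 and, by 1 of its 2 probes, Cdkn2b were higher and Lmnb1 and Cdkn2a were lower on the percentile scale, although Cdkn2a was higher in smoke lung on the spike-in scale. Lmnb1 had the widest difference of the 8, -3.61 on the log2 scale, and the p53 targets Cdkn1a and Gadd45a and the p53 inhibitor Mdm2 did not pass on the percentile scale. On the spike-in scale 7 of the 8 genes passed, each of them higher in smoke lung and Cdkn1a, Gadd45a and Mdm2 among them, and Lmnb1 did not pass, where 82.7% of all features were higher and 0.514% lower. Of all 25097 features, 47.5% passed in this comparison, 12.1% higher and 35.4% lower, so passing was common on these arrays. Smoke and naive arrays did not overlap for 7 of the 8 genes, against 79.4% of all features. The median difference of the 8 was 0.26, beside -0.62 over all features.

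In EV lung against smoke lung 4 of the 8 genes passed, Lmnb1 and Cdkn2a higher and Ccng1 and Sirt6 lower, with Cdkn2a lower in EV lung on the spike-in scale. Of all features 39.8% passed, 29.9% higher and 9.96% lower, and the median of the 8 genes was 0.17, beside 0.55. With spike-in scaling 7 of the 8 were lower in EV lung and 0 higher, against 73.3% of all features lower and 0.741% higher. All 8 genes had groups that did not overlap on the percentile scale, as had 82.8% of all features. In MSC lung against smoke lung 6 of the 8 passed, Lmnb1 and Cdkn2a higher and Ccng1, Mdm2, Sirt6 and, again by 1 of its 2 probes, Cdkn2b lower, with Cdkn2a at -0.89 on the spike-in scale (adjusted p = 0.11, limma). Here 59.7% of all features passed, 43.3% higher and 16.4% lower, and the median of the 8 genes was -0.68, beside 0.74. With spike-in scaling 6 of the 8 were lower in MSC lung and 0 higher, against 88% of all features lower and 0.785% higher. For 7 of the 8 genes MSC and smoke arrays did not overlap on the percentile scale, against 80.5% of all features. These 3 comparisons share the same 2 smoke arrays and are not independent of each other. In fits without 1 array the number of all features passing also changed, so a call lost there is not particular to its gene.

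**Figure D1:**
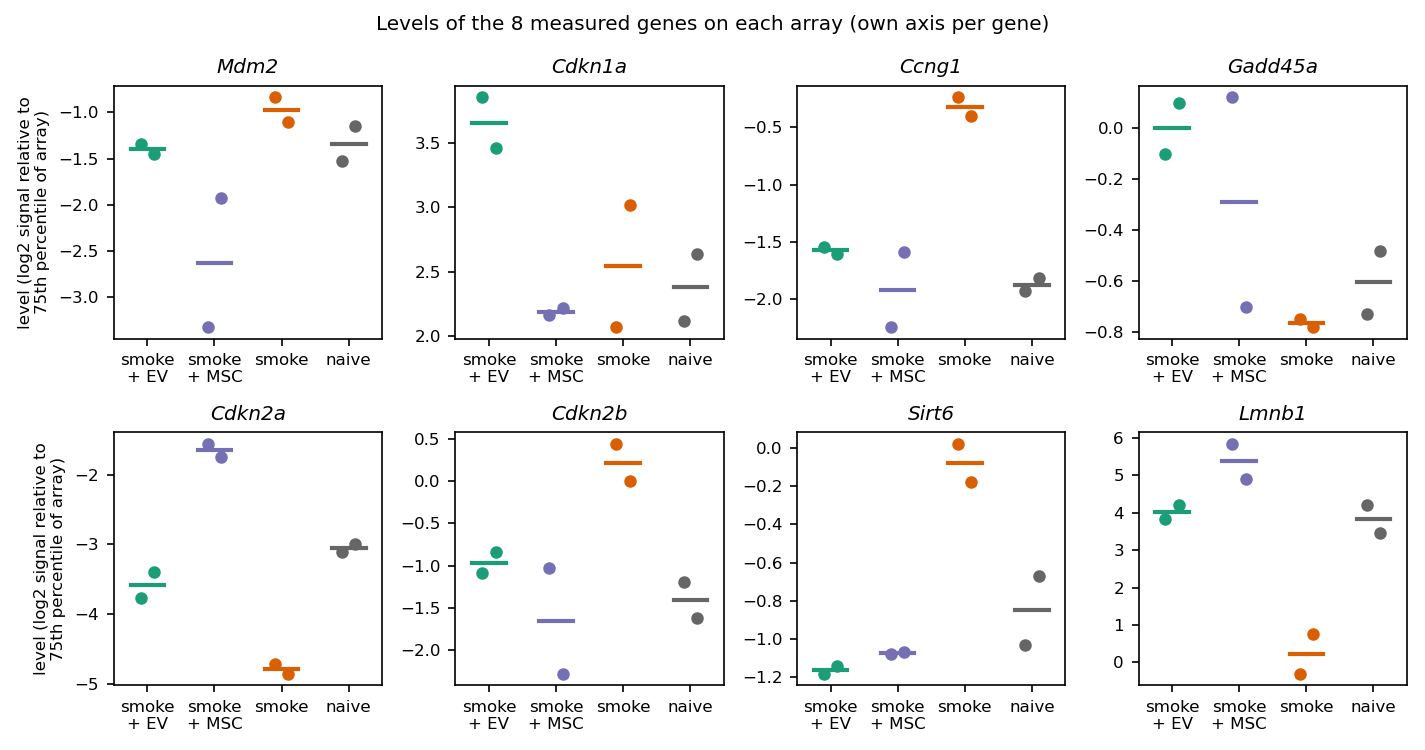
Level of each of the 8 measured genes on each array, as log2 signal relative to the 75th percentile of the array; points are single arrays (replicate 1 on the left), bars are the means of 2 arrays, and each gene has its own axis. The smoke arrays lie lowest for Lmnb1 and Cdkn2a and highest for Ccng1, Cdkn2b, Sirt6 and Mdm2.

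The promoters of the 5 genes whose differences are described most closely are shown for reference, 5′ to 3′ on the strand of the gene. Each is the 250 bases before the first transcription start listed for the gene in RefSeq's table for build GRCr8. Any other start of a gene was not examined, so distances and missing motifs refer to that 1 start. Capitals mark matches, on either strand, to 6 short motifs: the GC box GGGCGG, the CCAAT box, the E2F core TTCCCGC, the cell cycle element CHR (TTTGAA), the TATA box TATAAA and the consensus of a p53 half-site. Of 33469 rat promoters of that length, 30.5% hold the GC box, 34.0% the CCAAT box, 3.36% the E2F core, 16.2% the CHR, 12.9% the TATA box and 6.64% a p53 half-site, and no matches overlapped in the sequences below. Lmnb1 lies at chr18:52373689-52373938 (plus strand), Ccng1 at chr10:25684877-25685126 (minus), Cdkn1a at chr20:7150682-7150931 (plus), Cdkn2a at chr5:109107957-109108206 (minus) and Cdkn2b at chr5:109134856-109135105 (minus).
Lmnb1: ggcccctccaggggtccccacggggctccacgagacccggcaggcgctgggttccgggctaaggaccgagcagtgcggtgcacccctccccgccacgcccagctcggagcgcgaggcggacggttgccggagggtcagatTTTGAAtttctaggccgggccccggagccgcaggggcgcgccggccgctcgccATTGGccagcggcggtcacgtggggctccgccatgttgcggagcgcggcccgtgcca
Ccng1: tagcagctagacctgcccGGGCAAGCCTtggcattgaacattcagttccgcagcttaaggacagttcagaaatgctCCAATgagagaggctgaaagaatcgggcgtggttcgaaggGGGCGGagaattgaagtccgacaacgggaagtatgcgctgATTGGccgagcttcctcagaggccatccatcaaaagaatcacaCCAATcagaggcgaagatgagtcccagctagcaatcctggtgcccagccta
Cdkn1a: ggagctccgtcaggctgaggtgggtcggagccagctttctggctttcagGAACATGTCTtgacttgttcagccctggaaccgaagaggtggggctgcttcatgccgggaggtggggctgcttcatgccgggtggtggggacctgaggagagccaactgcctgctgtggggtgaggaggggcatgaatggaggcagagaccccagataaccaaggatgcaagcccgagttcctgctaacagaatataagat
Cdkn2a: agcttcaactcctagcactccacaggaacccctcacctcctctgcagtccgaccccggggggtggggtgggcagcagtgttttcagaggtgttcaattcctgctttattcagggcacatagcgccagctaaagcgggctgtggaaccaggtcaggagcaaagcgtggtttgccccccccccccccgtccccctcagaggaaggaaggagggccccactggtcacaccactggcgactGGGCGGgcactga
Cdkn2b: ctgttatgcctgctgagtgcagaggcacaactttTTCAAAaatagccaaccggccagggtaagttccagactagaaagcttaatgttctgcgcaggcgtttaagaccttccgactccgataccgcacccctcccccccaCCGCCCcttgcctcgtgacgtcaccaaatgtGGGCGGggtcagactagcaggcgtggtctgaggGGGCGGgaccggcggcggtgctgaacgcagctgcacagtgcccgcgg
A match to the p53 half-site stood 232 bases before the start of Ccng1 and 201 bases before that of Cdkn1a, and neither Lmnb1, Cdkn2a nor Cdkn2b held one in this window. Of the genes whose windows are not shown, Gadd45a held a match 48 bases before its start, and Mdm2 and Sirt1 held none. Lmnb1 held a CHR match 110 bases and a CCAAT match 57 bases before its start, and its window was the richest of the 5 in G and C, at 74.8%, beside a median of 51.2% over all promoters. Cdkn2b held 3 GC boxes and a CHR, Cdkn2a 1 GC box, and Ccng1 1 GC box and 3 CCAAT boxes. None of the 5 held the E2F core or the TATA box. A match is a string of letters and does not show that a factor binds there.

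Mdm2, the brake on p53, had levels of -1.34 and -1.45 on the EV arrays, -3.32 and -1.93 on the MSC arrays, -0.84 and -1.11 on the smoke arrays and -1.53 and -1.15 on the naive arrays. The smoke arrays were the highest and the MSC arrays the lowest, with the first MSC array far below the second. In smoke against naive lung the log2 difference was 0.36 ± 0.45 (SE), short of the threshold (adjusted p = 0.526, limma), and in EV against smoke lung it was -0.42 (adjusted p = 0.476). Mdm2 fell in MSC lung, by 1.65 on the log2 scale against smoke lung (adjusted p = 0.0156), a level 0.318 times that of smoke lung. The call was lost without the first smoke array (-1.52, adjusted p = 0.0842) and under normexp background correction (-0.61, adjusted p = 0.0606). Without 1 array at a time the difference ran between -2.35 and -0.95. Mdm2 passed on the spike-in scale in all 3 comparisons, at 3.33 (adjusted p = 0.000186) in smoke against naive lung, -2.91 (adjusted p = 0.000789) in EV against smoke lung and -5.67 (adjusted p = 9.29e-07) in MSC against smoke lung.

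Cdkn1a, which encodes p21, was measured by 2 probes, the brighter of them printed as 10 spots per array. That probe stood at 3.85 and 3.46 on the EV arrays, 2.16 and 2.22 on the MSC arrays, 2.07 and 3.02 on the smoke arrays and 2.12 and 2.64 on the naive arrays. The EV arrays were above all 6 others, and the smoke and naive arrays overlapped. Its 8 to 10 usable spots per array varied with an SD of 0.045 to 0.071 log2 units, far less than the 0.95 log2 units between the 2 smoke arrays. In smoke against naive lung the difference was 0.17 ± 0.39 (SE; adjusted p = 0.739, limma) on the percentile scale, and 3.13 (adjusted p = 0.00012) on the spike-in scale, where it passed. In EV against smoke lung it was 1.11, a ratio of 2.16, and narrowly missed the threshold (adjusted p = 0.0542), with the sign turned on the spike-in scale, where it was -1.37 (adjusted p = 0.0284). It passed as higher in EV lung in 4 of the 10 other settings tried, the spike-in scale not among them. In MSC against smoke lung it was -0.35 (adjusted p = 0.461), and -4.37 (adjusted p = 2.76e-06) on the spike-in scale.

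The dimmer Cdkn1a probe read -3.41 and -3.48 on the EV arrays, -4.30 and -4.15 on the MSC arrays, -4.96 and -4.49 on the smoke arrays and -5.46 and -4.26 on the naive arrays. The EV arrays were again the highest on this scale. The deposited signals of this probe were dim, between 12.5 and 119, and were brightest on the smoke arrays. Fitted over all 29612 kept probes, where 39% passed in EV against smoke lung, this probe was higher by 1.28 (adjusted p = 0.0447, limma), and in MSC against smoke lung it was at 0.50 (adjusted p = 0.332), the opposite sign to the brighter probe. The dimmer probe read, on the spike-in scale, 6.22 and 5.44 on the EV arrays, 3.41 and 3.62 on the MSC arrays, 7.08 and 6.99 on the smoke arrays and 3.70 and 4.16 on the naive arrays, so that the smoke arrays were the highest.

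Ccng1, cyclin G1, another direct p53 target, stood at -1.54 and -1.60 on the EV arrays, -2.24 and -1.59 on the MSC arrays, -0.24 and -0.40 on the smoke arrays and -1.93 and -1.81 on the naive arrays. Both smoke arrays were above the other 6. Ccng1 rose by 1.55 ± 0.31 (SE) on the log2 scale in smoke against naive lung, or 2.92 times (adjusted p = 0.00655, limma). It fell by 1.25 in EV against smoke lung (adjusted p = 0.0171) and by 1.60 in MSC against smoke lung (adjusted p = 0.00323). These directions were the same on the spike-in scale, at 4.51, -3.74 and -5.62, and under the other 9 settings tried. Leaving out arrays cost the smoke against naive call without the first smoke array (1.47, adjusted p = 0.0528), and the EV against smoke call held in 4 of 8 such fits, with differences between -1.33 and -1.18 and adjusted p up to 0.111.

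Gadd45a, a stress protein that slows the cycle at its entry into mitosis, stood at -0.10 and 0.10 on the EV arrays, 0.12 and -0.70 on the MSC arrays, -0.75 and -0.78 on the smoke arrays and -0.73 and -0.48 on the naive arrays. The smoke arrays were the lowest, only just below the first naive array and the second MSC array. No comparison passed: the difference was -0.16 ± 0.34 (SE) in smoke against naive lung (adjusted p = 0.714, limma), 0.76 in EV against smoke lung (adjusted p = 0.107) and 0.48 in MSC against smoke lung (adjusted p = 0.253). On the spike-in scale these 3 values had the opposite sign and passed, at 2.80 (adjusted p = 0.000276), -1.72 (adjusted p = 0.00933) and -3.54 (adjusted p = 1.82e-05).

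The locus of Cdkn2a, which encodes the p16 and p19Arf inhibitors, and its neighbour Cdkn2b, which encodes p15, differed in opposite directions by the probes that represent them on the percentile scale, and in the same direction on the spike-in scale, higher in smoke lung and lower in both treated groups. The Cdkn2a probe, for which no transcript form is given here, had levels of -3.77 and -3.39 on the EV arrays, -1.56 and -1.74 on the MSC arrays, -4.71 and -4.85 on the smoke arrays and -3.11 and -2.99 on the naive arrays. The 4 groups did not overlap, with MSC lung highest and smoke lung lowest. On the percentile scale Cdkn2a fell by 1.73 ± 0.28 (SE) in smoke against naive lung (adjusted p = 0.00348, limma), but on the spike-in scale it was 1.24 higher (adjusted p = 0.0355). It was 1.20 higher in EV against smoke lung (adjusted p = 0.0144) and -1.29 on the spike-in scale (adjusted p = 0.0336), while in MSC against smoke lung it was 3.13 higher (adjusted p = 0.000242) and -0.89 on the spike-in scale. The deposited signals themselves were 55.7 and 46.0 on the EV arrays, 83.2 and 76.7 on the MSC arrays, 124 and 92.7 on the smoke arrays and 65.7 and 45.6 on the naive arrays, so before any scaling the smoke arrays were the brightest. The EV against smoke call was lost under quantile normalization (0.67, adjusted p = 0.0744) and cyclic loess (0.76, adjusted p = 0.0517), and without the second EV array (1.01, adjusted p = 0.116), the first smoke array (1.27, adjusted p = 0.0787) or the second smoke array (1.12, adjusted p = 0.0658).

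The brighter Cdkn2b probe had levels of -1.09 and -0.84 on the EV arrays, -1.03 and -2.28 on the MSC arrays, 0.44 and 0.00 on the smoke arrays and -1.19 and -1.62 on the naive arrays. Both smoke arrays were above the other 6. This probe rose by 1.62 ± 0.44 (SE) in smoke against naive lung (adjusted p = 0.0201, limma) and fell by 1.88 in MSC against smoke lung (adjusted p = 0.00803), and in EV against smoke lung it was at -1.18 (adjusted p = 0.0657). The rise was lost without the second naive array (1.41, adjusted p = 0.0944) or the first smoke array (1.40, adjusted p = 0.122), and the fall in MSC lung without the first smoke array (-1.66, adjusted p = 0.0567). The directions were the same on the spike-in scale and the 3 differences passed, at 4.59, -3.67 and -5.90.

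The other Cdkn2b probe, designed to a predicted transcript, went the other way on the percentile scale. It had levels of -4.59 and -4.20 on the EV arrays, -4.10 and -4.55 on the MSC arrays, -5.75 and -5.33 on the smoke arrays and -4.61 and -4.51 on the naive arrays, and missed the detection flag on the second naive array. The smoke arrays were here the lowest of the 8. The deposited signals of this probe were dim, between 10.9 and 66.7, and were brightest on the smoke arrays. Fitted over all kept probes, of which 46.5% passed in smoke against naive lung and 58.8% in MSC against smoke lung, it differed by -0.97 in smoke against naive lung (adjusted p = 0.0378, limma), by 1.14 in EV against smoke lung (adjusted p = 0.026) and by 1.21 in MSC against smoke lung (adjusted p = 0.0125). The mean of both Cdkn2b probes did not pass, at 0.32 in smoke against naive lung (adjusted p = 0.456) and -0.33 in MSC against smoke lung (adjusted p = 0.432). This probe read, on the spike-in scale, 5.04 and 4.72 on the EV arrays, 3.62 and 3.21 on the MSC arrays, 6.29 and 6.15 on the smoke arrays and 4.55 and 3.91 on the naive arrays, the smoke arrays the highest as on the brighter probe. The 2 probes thus differed in direction on the percentile scale and not on the spike-in scale.

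**Figure D2:**
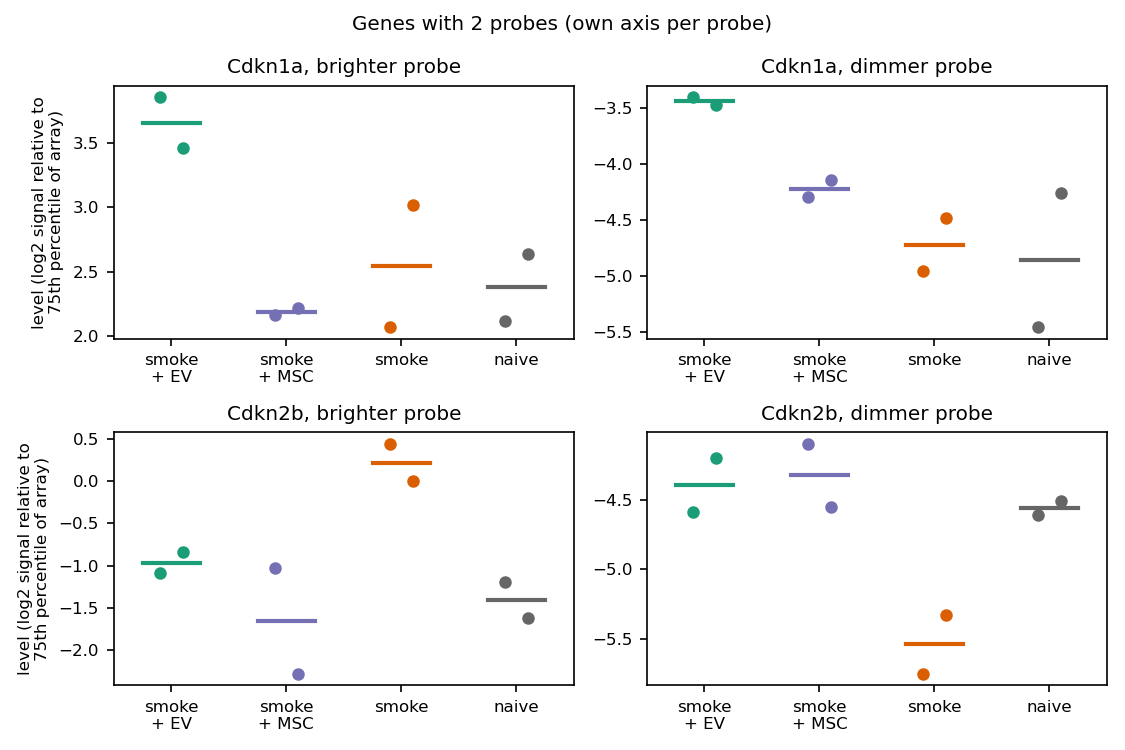
Levels of both probes of Cdkn1a (top) and Cdkn2b (bottom) on each array, in log2 units relative to the 75th percentile of the array, with the probe that represents the gene on the left; points are arrays and bars are means of 2. Both Cdkn1a probes are highest on the EV arrays, while on this scale the smoke arrays are highest on 1 Cdkn2b probe and lowest on the other.

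Sirt6, a deacetylase of chromatin with roles in DNA repair, stood at -1.18 and -1.14 on the EV arrays, -1.08 and -1.07 on the MSC arrays, 0.02 and -0.18 on the smoke arrays and -1.03 and -0.67 on the naive arrays. Both smoke arrays were above the other 6. Sirt6 was 0.77 ± 0.27 (SE) higher in smoke against naive lung with an adjusted p of 0.0495 in limma, at the edge of the threshold. That call held in 2 of the 8 fits without 1 array, those without an MSC array, and the adjusted p reached 0.223 without the first smoke array (0.67). It fell by 1.08 in EV against smoke lung (adjusted p = 0.019) and by 1.00 in MSC against smoke lung (adjusted p = 0.0151). The EV fall held in 4 of 8 such fits and was lost without any 1 of the EV or smoke arrays, with adjusted p up to 0.127 without the first smoke array (-0.98). The MSC fall held in 7, being lost without the first smoke array (-0.89, adjusted p = 0.0934). The directions were the same on the spike-in scale, at 3.73, -3.57 and -5.02.

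Lmnb1 encodes lamin B1, a filament protein of the inner nuclear membrane. Its levels were 3.83 and 4.20 on the EV arrays, 5.84 and 4.91 on the MSC arrays, -0.30 and 0.77 on the smoke arrays and 4.22 and 3.47 on the naive arrays. Both smoke arrays lay at least 2.70 log2 units below every other array. Lmnb1 fell by 3.61 ± 0.49 (SE) in smoke against naive lung (adjusted p = 0.00247, limma), to 0.0821 times the naive level, and 1.25% of all features had a lower difference. It was 3.78 higher in EV against smoke lung (adjusted p = 0.00405) and 5.14 higher in MSC against smoke lung (adjusted p = 0.00026), with 99.2% and 99.1% of features below it. All 3 calls held in each of the 8 fits without 1 array.

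On the spike-in scale the 3 Lmnb1 differences kept their sign but were smaller and did not pass, at -0.64 ± 0.58 (SE; adjusted p = 0.308, limma), 1.29 (adjusted p = 0.0569) and 1.12 (adjusted p = 0.0833). The deposited signals were 10800 and 8870 on the EV arrays, 14100 and 7710 on the MSC arrays, 2630 and 4580 on the smoke arrays and 10600 and 4020 on the naive arrays. The smoke and naive arrays overlapped in these signals, although most probes were several times brighter on the smoke arrays. Of the 8 genes, Lmnb1 alone was on the lower side in smoke against naive lung on the spike-in scale, on which 82.7% of all features were called higher and 0.514% lower.

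**Figure D3:**
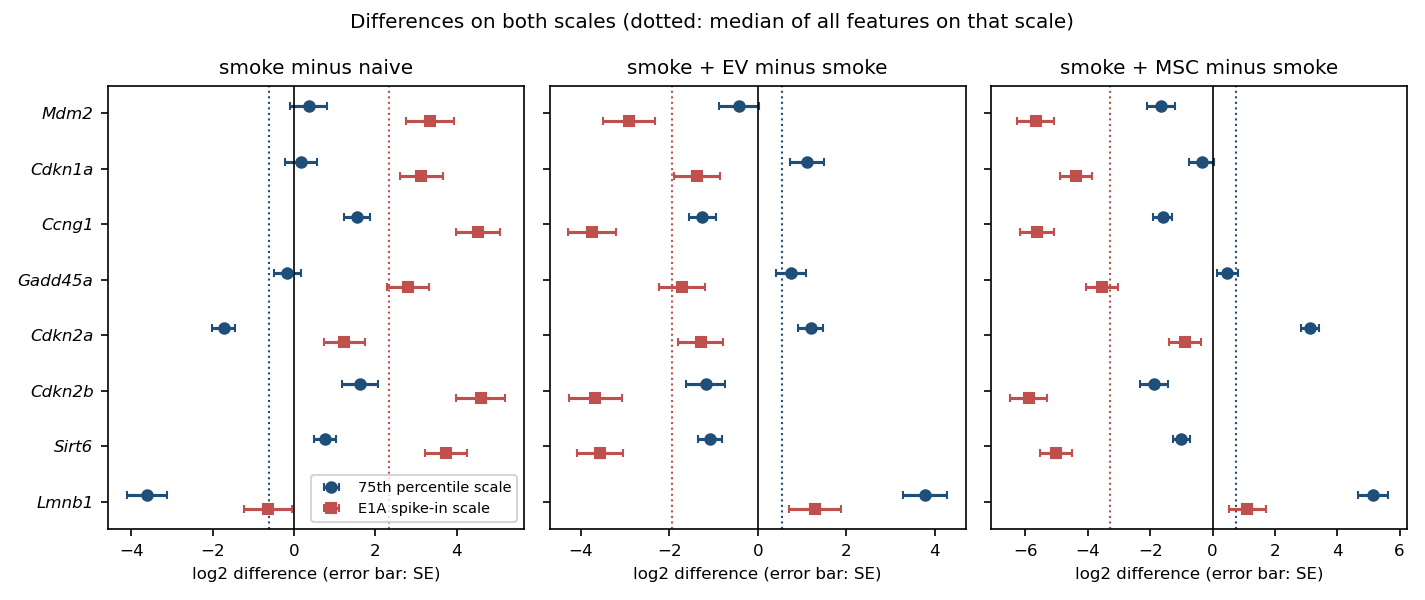
Log2 differences of the 8 genes, with SE, for smoke minus naive, EV minus smoke and MSC minus smoke lung (2 arrays per group), on the 75th percentile scale (circles) and the E1A spike-in scale (squares); dotted lines are the medians of all features. Lmnb1, Mdm2, Ccng1, Cdkn2b and Sirt6 keep their sign on both scales in the 3 comparisons. Cdkn2a and Gadd45a turn in all 3, and Cdkn1a turns in EV minus smoke lung.

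In EV against MSC lung, Cdkn2a passed among the 8 genes, at -1.93 and thus lower in EV lung (adjusted p = 0.0369, limma), where 7.14% of all features passed. The arrays did not overlap, at -3.77 and -3.39 in EV lung and -1.56 and -1.74 in MSC lung. Without 1 array at a time the difference ran between -2.12 and -1.74. The call was lost without any 1 EV, MSC or smoke array, where calls over all features fell as well. On the spike-in scale the difference was -0.39 (adjusted p = 0.525, limma). The adjusted p was 0.0593 for Cdkn1a, at 1.46, 0.119 for Mdm2, at 1.23, and 0.113 for Lmnb1, at -1.36, with Lmnb1 at 0.18 on the spike-in scale. On that scale 6 of the 8 genes passed as higher in EV lung and 0 as lower, against 40.7% and 0.0398% of all features, and Cdkn2a and Lmnb1 did not pass.

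Against naive lung, none of the 8 genes passed in either treated group by limma on the percentile scale, where 0% of all features passed for EV and 0.00398% for MSC lung. At an unadjusted p under 0.05 in limma, 1 of the 8 passed for EV lung, Cdkn1a, and 3 for MSC lung, Mdm2, Cdkn2a and Lmnb1. The share of all features at that unadjusted threshold was not computed, so these counts are no result about the 8 genes. The widest difference of EV lung from naive lung was that of Cdkn1a, at 1.28 (adjusted p = 0.951), and no naive array reached the EV levels. For MSC lung the widest were Lmnb1 at 1.53 (adjusted p = 0.152), Cdkn2a at 1.40 (adjusted p = 0.0987) and Mdm2 at -1.29 (adjusted p = 0.173). Mdm2 passed on the spike-in scale as lower in MSC lung, at -2.35 (adjusted p = 0.0367), where 6.43% of all features were lower. With so few features passing at 2 arrays a group, these p values do not show that treated lung and naive lung were alike.

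For the lists that follow, the shares of all features that passed on the percentile scale were 12.1% higher and 35.4% lower in smoke against naive lung, 29.9% and 9.96% in EV against smoke lung, and 43.3% and 16.4% in MSC against smoke lung. On the spike-in scale 82.7% were higher in the first and 73.3% and 88% lower in the other two. Shares near these are no result about a list.

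Among the other p53 regulators, 11 of 14 had a probe and were tested, and on the percentile scale 8 were lower and 0 higher in smoke against naive lung, while on the spike-in scale 10 were higher. The lower genes were 72.7% of the list. Their median was -1.24, beside -0.62 over all features. Tp73, a relative of p53, was at -1.85 (adjusted p = 0.0185, limma) on the percentile scale, although it was 1.11 higher on the spike-in scale. Kat5, an acetyltransferase that acts on p53, was likewise at -1.60 (adjusted p = 0.00547) and 1.36 on the 2 scales. In EV against smoke lung 6 of the 11 were higher and 2 lower, and in MSC against smoke lung 9 were higher and 2 lower. The highest of them were Atm at 2.87 and Chek2 at 2.77, both kinases of the damage signal, and at -1.15 and -1.25 on the spike-in scale. Both probes were dim, with levels of -6.11 and -6.32 for Atm and -5.63 and -4.49 for Chek2 on the smoke arrays. The higher genes were 54.5% and 81.8% of the list and the lower 18.2% in each, and on the spike-in scale 8 and 11 of the list were lower. No gene of this list was higher on that scale in either comparison.

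Of 29 further p53 targets, 22 were tested, and 4 were higher and 2 lower in smoke against naive lung (median -0.31), whereas 21 were higher on the spike-in scale. On the percentile scale these were 18.2% higher and 9.09% lower, and in each treated group against smoke lung 13.6% were higher and 13.6% lower. Phlda3, a p53 target that restrains Akt, was 2.60 higher (adjusted p = 0.00235, limma), with 1 of 2 naive arrays not well above background, and Ccng2, the relative of Ccng1, was 1.17 higher (adjusted p = 0.0265). Aen, a nuclease induced by p53, was at -1.62 (adjusted p = 0.00425) but 1.34 higher on the spike-in scale. In EV against smoke lung Phlda3 was at -2.17 and Ccng2 at -1.40, and 3 of the 22 were higher and 3 lower. The higher genes included Tp53inp1, at 1.99 by its brighter probe and 0.45 by the other, and Aen at 1.32. On the spike-in scale Tp53inp1 was at -0.50 by the brighter probe and Aen at -1.17. In MSC against smoke lung 3 were higher and 3 lower as well, with Phlda3 at -2.63 and Ddb2, a DNA damage sensor, at -1.84. Aen was 2.33 higher there, and -1.69 on the spike-in scale. All of these genes passed at an adjusted p of 0.05 in limma on the percentile scale, by the probes that represent them. On the spike-in scale 19 of the 22 were lower in EV and 22 of the 22 in MSC against smoke lung.

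Another list held 24 genes, of which 22 were tested. It joined cyclin-dependent kinase inhibitors, RB proteins and regulators of the Cdkn2a locus with cyclins, their kinases and E2F factors, so its counts do not cover inhibitors alone. In smoke against naive lung 2 were higher and 6 lower (median -0.10), against 22 higher on the spike-in scale. Rb1, the retinoblastoma protein that these inhibitors act through, was 3.36 higher (adjusted p = 0.00216, limma). It was at -2.99 in EV and -4.13 in MSC against smoke lung, the second with 1 of 2 MSC arrays not well above background. Cbx7, a Polycomb protein that represses Cdkn2a, was at -1.22 in smoke against naive lung and 1.16 and 1.69 higher in EV and MSC against smoke lung, each with the sign turned on the spike-in scale. In those comparisons 3 of the 22 were higher and 2 lower, and 6 were higher and 3 lower, while on the spike-in scale 21 and 22 were lower. As shares of the list, 9.09% were higher and 27.3% lower in smoke against naive lung, 13.6% and 9.09% in EV against smoke lung, and 27.3% and 13.6% in MSC against smoke lung. Of the 4 relatives and partners of Gadd45a, Gadd45g was 2.00 higher in smoke against naive lung (adjusted p = 0.00527), and Gadd45b was at -1.82 (adjusted p = 0.0344) but 1.14 higher on the spike-in scale.

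Of 18 other sirtuin and NAD genes 15 were tested, and 5 were higher and 4 lower in smoke against naive lung (median 0.01), with 14 higher on the spike-in scale. Nampt, the enzyme that supplies NAD to sirtuins, was at -3.15 (adjusted p = 0.00396, limma) by its brighter probe and at -0.02 by the other, and the brighter was at -0.19 on the spike-in scale. Against smoke lung 3 of the 15 were higher and 3 lower in EV lung, and 5 were higher and 5 lower in MSC lung, where the mitochondrial sirtuin Sirt3 was 1.81 higher (adjusted p = 0.0029) but -2.21 on the spike-in scale. The shares were 33.3% higher and 26.7% lower in smoke against naive lung, 20% and 20% in EV against smoke lung, and 33.3% and 33.3% in MSC against smoke lung, and on the spike-in scale 13 and 14 of the 15 were lower in EV and MSC lung.

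Of 14 other nuclear lamina genes 11 were tested. In smoke against naive lung 2 were higher and 3 lower (median -0.24), with 10 higher on the spike-in scale, where Lmnb1 was not. Tmpo, a lamina-associated protein, was 1.52 higher (adjusted p = 0.00552, limma), and Syne1, which links the nucleus to the cytoskeleton, was at -2.45 (adjusted p = 0.00437) but 0.51 higher on the spike-in scale. In EV against smoke lung 4 were higher and 1 lower. In MSC against smoke lung 5 were higher and 2 lower, with Tmpo at -2.35 and Syne1 at 3.28, but -0.74 on the spike-in scale, where 10 of the 11 were lower in each treated group. The shares were 18.2% higher and 27.3% lower in smoke against naive lung, 36.4% and 9.09% in EV against smoke lung, and 45.5% and 18.2% in MSC against smoke lung. Lmna, the A-type lamin, was 1.27 higher in EV against smoke lung (adjusted p = 0.0155) by its brighter probe, but -1.22 on the spike-in scale, and at -0.43 by its other probe, and Lmnb2, the other B-type lamin, given for its role, was at 0.05 in smoke against naive lung (adjusted p = 0.927) and 3.01 on the spike-in scale.

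Among 37 genes of the senescence secretory programme, 32 were tested, and 9 were higher and 5 lower in smoke against naive lung (median -0.01), against 27 higher and 1 lower on the spike-in scale. The chemokine Cxcl1 was 2.78 higher (adjusted p = 0.00217, limma), and Igfbp5, which binds insulin-like growth factors, was at -4.12 (adjusted p = 0.00216) and at -1.15 on the spike-in scale, with levels of -5.10 and -4.49 on the smoke arrays and -0.80 and -0.56 on the naive arrays. Against smoke lung, Igfbp5 was 4.27 higher in EV and 5.59 higher in MSC lung, and Cxcl1 was at -1.80 and -3.90. Of the 32, 4 were higher and 4 lower in EV lung, and 6 were higher and 10 lower in MSC lung, against 24 and 28 lower and 1 higher in each on the spike-in scale. The shares were 28.1% higher and 15.6% lower in smoke against naive lung, 12.5% and 12.5% in EV against smoke lung, and 18.8% and 31.2% in MSC against smoke lung. Of 27 proliferation genes 25 were tested, and 2 were higher and 6 lower in smoke against naive lung (median 0.11), against 25 higher on the spike-in scale. Pcna, a clamp of DNA replication that p53 also induces, was 1.02 higher (adjusted p = 0.0187), and it was at -1.04 in EV and -0.98 in MSC against smoke lung. Plk1, a mitotic kinase, was at -1.46 in smoke against naive lung, but of the opposite sign on the spike-in scale. Against smoke lung, 4 of the 25 were higher and 1 lower in EV lung, and 8 were higher and 2 lower in MSC lung, with 24 and 25 lower on the spike-in scale. The shares were 8% higher and 24% lower in smoke against naive lung, 16% and 4% in EV against smoke lung, and 32% and 8% in MSC against smoke lung.

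**Figure D4:**
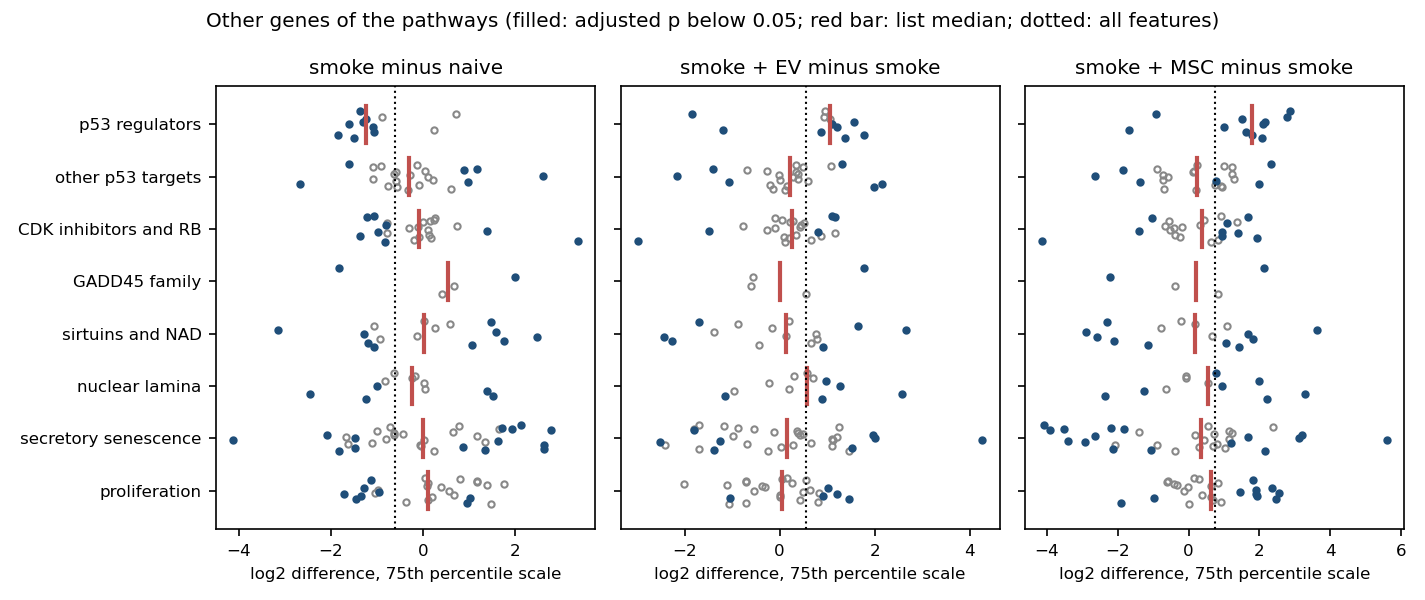
Log2 difference of every tested gene of the 8 pathway lists on the 75th percentile scale, for smoke minus naive, EV minus smoke and MSC minus smoke lung; filled points passed at an adjusted p below 0.05, red bars are list medians and dotted lines the median of all features. In smoke minus naive lung the medians run between -1.24 for p53 regulators and 0.53 for the GADD45 family, on either side of the all-feature median of -0.62.

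By Pearson correlation of level over the 8 arrays, the named genes most like Lmnb1 were Hdac4, Rxra and Kdm2a, each at 0.997, and on the spike-in scale the same pairs were at -0.168, -0.177 and -0.242. Those most like Mdm2 were Slc66a3, Poc5 and Acsl3, at 0.992, 0.990 and 0.986, and 0.999, 0.997 and 0.997 on the spike-in scale. Mdm2 and these 3 genes were each lowest on the first MSC array, at -3.32, -4.10, -5.76 and -3.79, so their correlations on the percentile scale lean on 1 array. Those most like Cdkn1a were Adamts9, Mknk2 and Tmem33, at 0.946, 0.940 and 0.917, and 0.958, 0.968 and 0.971 on the spike-in scale. These values are descriptions over arrays that share 4 group means and 1 slide.

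Heart muscle markers differed between arrays of 1 group, with a mean level over 6 genes of 2.18 and -3.21 on the EV arrays, -1.67 and 3.18 on the MSC arrays, -4.39 and -4.66 on the smoke arrays and -3.72 and -2.42 on the naive arrays. Their part in the results was not tested. Without the first EV array the Lmnb1 difference in EV against smoke lung was 3.96, and without the second MSC array that in MSC against smoke lung was 5.60. The EV and MSC arrays left in still read higher on these markers than the smoke arrays, so these fits do not test that part. Endothelial, fibroblast and muscle, and macrophage lists had mean levels within 0.84 to 1.86, 1.05 to 2.54 and -2.71 to -2.06 over the 8 arrays. T cell and B cell lists ran between -4.06 and -2.41 and between -3.82 and -0.88, with the second MSC array highest on the B cell list, and neutrophil markers between -1.41 and 0.31.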

How the data were processed

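The deposited files are Agilent Feature Extraction 10.7.3.1 output for array design 074036, per the file headers. They hold intensity values per spot, already background-subtracted and spatially detrended but not normalized between arrays, and other flags (0 or 1) for spots well above background, saturated or outlying, per the file headers; no spot was saturated. What else the authors did is not stated in the labels or headers used here.

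Each array had 62976 spots, 4259 of them controls. Spots flagged as outliers were removed, log2 of the intensity was averaged over the spots of each probe, and log2 of the array's 75th percentile was subtracted. Probes had to be well above background on the 2 arrays of 1 group or more (29612 of 45598; 48.1% to 71.3% detected per array). Accessions without versions were matched to RefSeq names of assembly GRCr8 (21215 probes, 16667 symbols), and the brightest kept probe represented a gene, giving 25097 features, 12729 with a symbol. limma 3.58.1 in R 4.3.3 fitted 4 group means over all 8 arrays (4 residual and 3.58 prior degrees of freedom), with Benjamini-Hochberg adjustment over all features at 0.05 in each of 6 comparisons, 2-sided. The fit was run on simulated arrays of equal brightness in which 200 features were shifted by 2 log2 units. That run does not bear on the choice of scale. Figures and promoters were handled in Python 3.11.15 with pandas 2.3.3 and matplotlib 3.10.9. The 2 arrays of each group correlated across probes at 0.95 to 0.972.

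Spike-in scaling subtracted the mean of 7 of 10 E1A probes. The other alternatives were normexp with an offset of 50 on median signals, quantile and cyclic loess normalization, no filter or detection on all 8 arrays, averaging the probes of a gene, every probe as a feature, a trended and robust prior, a block for replicate number, and fits without each single array, in which a group of 1 array takes its spread from the rest.

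The genes, the 8 pathway lists and the 8 marker lists were chosen with earlier results of these data known. Genes named outside the 9 are, per list and for smoke against naive lung and each treatment against smoke lung, the 2 highest and 2 lowest differences that passed, and the 3 genes of highest correlation with Lmnb1, Mdm2 and Cdkn1a. Of the list genes, those with a probe below background on both arrays of a group compared are left out of the text, as are some others the rule names. Lmnb2 was added for its role, after its values were seen. 1 gene of the lists is not reported here and was left out of its list.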

Additional observations from a re-analysis of the deposited data

Results flagged for a closer look

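Cdkn2a differed between the treatments on the percentile scale. Its log2 difference from smoke lung was 1.20 with vesicles and 3.13 with stem cells. The difference between these effects, which is that of EV against MSC lung, was -1.93 (adjusted p = 0.0369, limma), both arrays of EV lung lying below both of MSC lung. On the spike-in scale both effects had the opposite sign, at -1.29 and -0.89, and EV against MSC lung was at -0.39 (adjusted p = 0.525, limma). Over the other settings the adjusted p in limma ran between 0.00548 and 0.525, and the call held in 8 of 10 of them. The call was lost without any 1 EV, MSC or smoke array, where calls over all features fell as well. No sample could be screened for outliers within a group of 2 arrays.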

How the results depend on the processing

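Over 864 refits of single gene differences, 757 kept their direction and their side of the threshold, 43 lost the call, 32 gained one and 32 changed sign. Where the array left out was in neither group compared, the difference could not change, nor could it under the prior, block and every-probe settings. The 757 therefore overstates how stable the directions were. With all arrays, the count of genes passing was 5 for smoke against naive lung, 4 for EV against smoke lung and 6 for MSC against smoke lung. It was 1 for EV against MSC lung and 0 in each comparison of a treated group with naive lung. Counts from fits without 1 array are not given, because the number of all features passing also changed with the array left out. Under spike-in scaling smoke against naive lung gave 7, all higher (3 higher and 2 lower on the percentile scale), EV against smoke lung 7, all lower (2 and 2), and MSC against smoke lung 6, all lower (2 and 4). EV against smoke lung gave 7 under normexp. EV against MSC lung gave 3 under normexp, 6 under spike-in scaling, 2 under quantile normalization, 2 with detection on all 8 arrays, 2 under the trended and robust prior and 0 with no filter. MSC against naive lung gave 1 under spike-in scaling. Counts under settings other than spike-in scaling have no share of all features beside them here and are no result about the 8 genes. The replicate block gave 4 in smoke against naive lung, the loss being Sirt6 (0.77, adjusted p = 0.073, limma), and changed no other call; replicate numbers mark no stated pairing, and the deviations of same-numbered arrays correlated at -0.15 to 0.14.

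Signs turned under spike-in scaling for Cdkn2a (1.24 for smoke against naive lung, with -1.29 for EV and -0.89 for MSC against smoke lung), Gadd45a (2.80, -1.72 and -3.54, and -0.74 in MSC against naive), Cdkn1a in EV against smoke (-1.37), Lmnb1 in EV against MSC (0.18), Sirt6 in EV against MSC (1.45) and EV against naive (0.17) and Mdm2 in EV against naive lung (0.42). Under normexp they turned for Ccng1 in EV against MSC (-0.01) and MSC against naive (0.14) and Cdkn2b in MSC against naive (0.03). Quantile normalization turned Gadd45a in smoke against naive (0.05) and Sirt6 in EV against MSC (0.09), cyclic loess Gadd45a in smoke against naive (0.21), and the mean of probes Cdkn1a in MSC against smoke (0.07) and MSC against naive (0.23). Without 1 array, values of both signs occurred for Cdkn1a in smoke against naive (-0.31 to 0.65), MSC against smoke (-0.83 to 0.13) and MSC against naive (-0.44 to 0.08), Gadd45a in EV against MSC (-0.13 to 0.69) and MSC against naive (-0.09 to 0.73), Ccng1 (-0.38 to 0.27) and Cdkn2b (-0.88 to 0.37) in MSC against naive, and Lmnb1 (-0.20 to 0.54) and Mdm2 (-0.25 to 0.13) in EV against naive lung. The cause was not tested. The number of arrays, 2 a group, limits the precision of every value.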
